A study of Mus musculus with 14 samples.

Results

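The 6 genes described here are Mas-related G protein-coupled receptors, Mrgprb1, Mrgprb2, Mrgprb3, Mrgprb8, Mrgprb13 and Mrgprx1, chosen by their gene symbols from a table of 55487 genes. The table held 34 genes of the family, so 28 relatives were not members. Read counts came from mast cells sorted from the ear skin of mice, with at most 100 cells in a library. Of the 14 libraries, 5 were resident mast cells of untreated mice (libraries 1 to 5), 5 were resident mast cells of mice treated with MC903 (libraries 6 to 10), and 4 were cells of MC903-treated mice that the labels call bone marrow mast cells (libraries 11, 13, 14 and 15). MC903 is calcipotriol, a vitamin D analogue that produces a dermatitis resembling atopic dermatitis when put on mouse skin. The protocol speaks of resident and of integrin β7-positive mast cells, and it does not say how the bone marrow label maps onto these sorts. Strain, genotype, sex, age, dose and length of treatment are not given in the sources used here. No label ties a library to an animal, so p-values measure only the spread between libraries, which may be technical.

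Mas-related receptors sense small basic molecules and peptides, and rodents carry a much expanded family of them in a cluster on one chromosome. In mast cells, Mrgprb2 is the receptor through which substance P and many cationic drugs cause degranulation without IgE, and it is the mouse counterpart of human MRGPRX2. Mrgprx1, also listed as MrgC11 in RefSeq, is best known as an itch receptor of sensory neurons that responds to opioid-precursor (BAM) peptides. Signals of these receptors pass through G proteins to phospholipase C and calcium. The mouse gene that carries the symbol Mrgprx2 in the table is a different gene from Mrgprb2, and RefSeq lists Mrgprb10 as its synonym.

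All 6 members lie on chromosome 7 of GRCm38. In order along it, Mrgprx1 (ENSMUSG00000070552) spans 48020971 to 48027597 on the minus strand, Mrgprb13 (ENSMUSG00000099620) 48311304 to 48312288 and Mrgprb8 (ENSMUSG00000050870) 48388526 to 48389648, both on the plus strand. Mrgprb1 (ENSMUSG00000070547) follows at 48444113 to 48456342, Mrgprb2 (ENSMUSG00000050425) at 48550965 to 48558086 and Mrgprb3 (ENSMUSG00000070546) at 48642803 to 48643811, all on the minus strand. Mrgprx2 lies between Mrgprb1 and Mrgprb2, at 48478619 to 48499321. GENCODE M21 annotates Mrgprb13 as an unprocessed pseudogene, whereas RefSeq annotates it as protein-coding. No annotated gene overlapped the exons of a member.

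By exact matches of 50 and 100 bases, most of each member's transcript was its own. These lengths were chosen for the check and were not taken from the libraries. Of the 50-base windows of their transcripts, Mrgprb1, Mrgprb2, Mrgprb3 and Mrgprx2 shared 0% with any other gene. Mrgprb8 and Mrgprb13 shared 6 windows with each other, which is 0.559% and 0.641% of their windows, and their aligned transcripts were 86.3% identical. For Mrgprx1, 66 of 1131 windows, or 5.84%, also occurred in other transcripts, mostly those of pseudogenes. With windows of 100 bases no member shared any. How the counting treated reads that fit more than one gene is not given in the sources used here, so a part of the Mrgprx1, Mrgprb8 and Mrgprb13 counts is uncertain.

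A RefSeq promoter was matched for 5 of the 6 members. Sequences are shown for Mrgprb1, Mrgprx2 and Mrgprx1, which were called lower in bone marrow-labelled cells, and for Mrgprb2, which was not called. Mrgpra4, a relative also called lower, is not shown. Each is the 250 bases before the RefSeq start of the gene on GRCm38.p6, written 5′ to 3′ on the gene's own strand. RefSeq starts Mrgprx2 inside the span that GENCODE gives it, so that window reaches into the GENCODE gene. The first belongs to Mrgprb1 (chr7:48456343-48456592, minus strand), the second to its neighbour Mrgprx2 (chr7:48499271-48499520, minus strand), the third to Mrgprb2 (chr7:48558087-48558336, minus strand) and the last to Mrgprx1 (chr7:48027598-48027847, minus strand). Capitals mark TGACTCA, the AP-1 motif, a choice made after the sequences had been read.
Mrgprb1: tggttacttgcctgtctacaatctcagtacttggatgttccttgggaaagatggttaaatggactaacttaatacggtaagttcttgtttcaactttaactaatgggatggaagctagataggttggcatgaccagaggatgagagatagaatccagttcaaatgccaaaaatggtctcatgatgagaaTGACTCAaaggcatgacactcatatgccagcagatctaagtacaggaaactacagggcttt
Mrgprx2: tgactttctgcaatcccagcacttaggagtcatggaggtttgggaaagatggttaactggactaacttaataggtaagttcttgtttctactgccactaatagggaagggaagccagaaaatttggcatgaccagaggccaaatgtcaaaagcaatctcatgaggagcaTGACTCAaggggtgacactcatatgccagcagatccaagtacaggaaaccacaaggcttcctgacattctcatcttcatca
Mrgprb2: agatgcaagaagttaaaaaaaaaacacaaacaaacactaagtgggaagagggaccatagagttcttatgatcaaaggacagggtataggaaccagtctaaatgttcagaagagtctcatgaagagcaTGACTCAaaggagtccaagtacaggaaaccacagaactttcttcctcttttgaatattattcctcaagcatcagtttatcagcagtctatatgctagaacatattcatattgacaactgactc
Mrgprx1: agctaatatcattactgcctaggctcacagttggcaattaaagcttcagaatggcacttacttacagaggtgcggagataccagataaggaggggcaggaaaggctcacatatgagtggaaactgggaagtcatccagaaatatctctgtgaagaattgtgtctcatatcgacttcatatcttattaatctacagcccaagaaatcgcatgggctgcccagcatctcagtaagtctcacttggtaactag
The Mrgprb1 and Mrgprx2 promoters were 74.7% identical over 249 aligned bases, and those of Mrgprb1 and Mrgprb2 were 70.2% identical over 104. TGACTCA stood at -61 to -55 in Mrgprb1, at -81 to -75 in Mrgprx2 and at -123 to -117 in Mrgprb2, counted from the gene start. It was not among the letters of the Mrgprx1, Mrgprb8, Mrgprb13 and Mrgpra4 windows. On either strand the motif occurred in 1466 of 32851 promoters of that length, or 4.46%. The GATA motif TGATAA, found in 7.94% of promoters, stood in Mrgprb2 (on the opposite strand, -48 to -43), in Mrgprb8 and at 2 places in Mrgprb13. AGATAA, in 9.99% of promoters, stood in Mrgprx1 at -168 to -163 and in Mrgprb8. Of the E-boxes CATGTG (12.3% of promoters) and CACGTG (6.02%), the first was in Mrgprb13 and the second in no member's window. These matches describe letters and were not tested as sites.

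Library totals ranged from 13068078 to 31781926 counts, and core mast cell genes such as Kit and Cpa3 were high in all groups, with a sum of 10 markers between 37575 and 66852 CPM (counts scaled to a common library size). Libraries 7, 8 and 15 detected 34560, 35246 and 32814 genes, against 16025 to 28790 in the others. Library 15 alone carried macrophage and dendritic cell markers at a summed 4220 CPM, where no other library passed 167 CPM. Library 11 had the highest sum of 4 basophil markers, 1513 CPM against 272 to 754 CPM in the others. Several of the results below, though not all, are also given without libraries 7, 8 and 15. Reads were amplified without molecular tags, so a limit drawn from counts covers counting error only.

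Mrgprb1 and Mrgprx1 were much lower in the bone marrow-labelled cells than in either resident group, while Mrgprb2 was called in no comparison. Mrgprb1 fell 4.01-fold and Mrgprx1 11.9-fold against the resident cells of treated skin. In resident cells, MC903 treatment went with a 1.69-fold lower Mrgprb1, a call that most reduced fits did not keep. Markers of mucosal type mast cells (the sum of Mcpt1, Mcpt2, Mcpt9 and Itgae) differed between the groups. They stood at 15.5 to 19.7 CPM in untreated, 37.3 to 265 CPM in MC903 resident and 106 to 3314 CPM in bone marrow-labelled libraries. Among the last, libraries 11 and 13 were far above 14 and 15. Mcpt9 did not follow this order, with means of 10.8, 18.6 and 13.7 CPM. The sum of 5 connective tissue type markers was 47203 to 65318, 70468 to 109629 and 70901 to 99345 CPM in the same order. Of these, Cma1, Ctsg and Tpsb2 were called higher and Mcpt4 lower in bone marrow-labelled than in untreated cells. The share of mitochondrial reads was 1.22 to 1.70% in untreated, 2.39 to 3.96% in MC903 resident and 2.14 to 4.24% in bone marrow-labelled libraries, with untreated libraries below all others. The part of these markers and of mitochondrial reads in the receptor differences was not tested. In pooled cells, a smaller number of cells that express a gene and less RNA in each cell cannot be told apart.

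**Figure D1:**
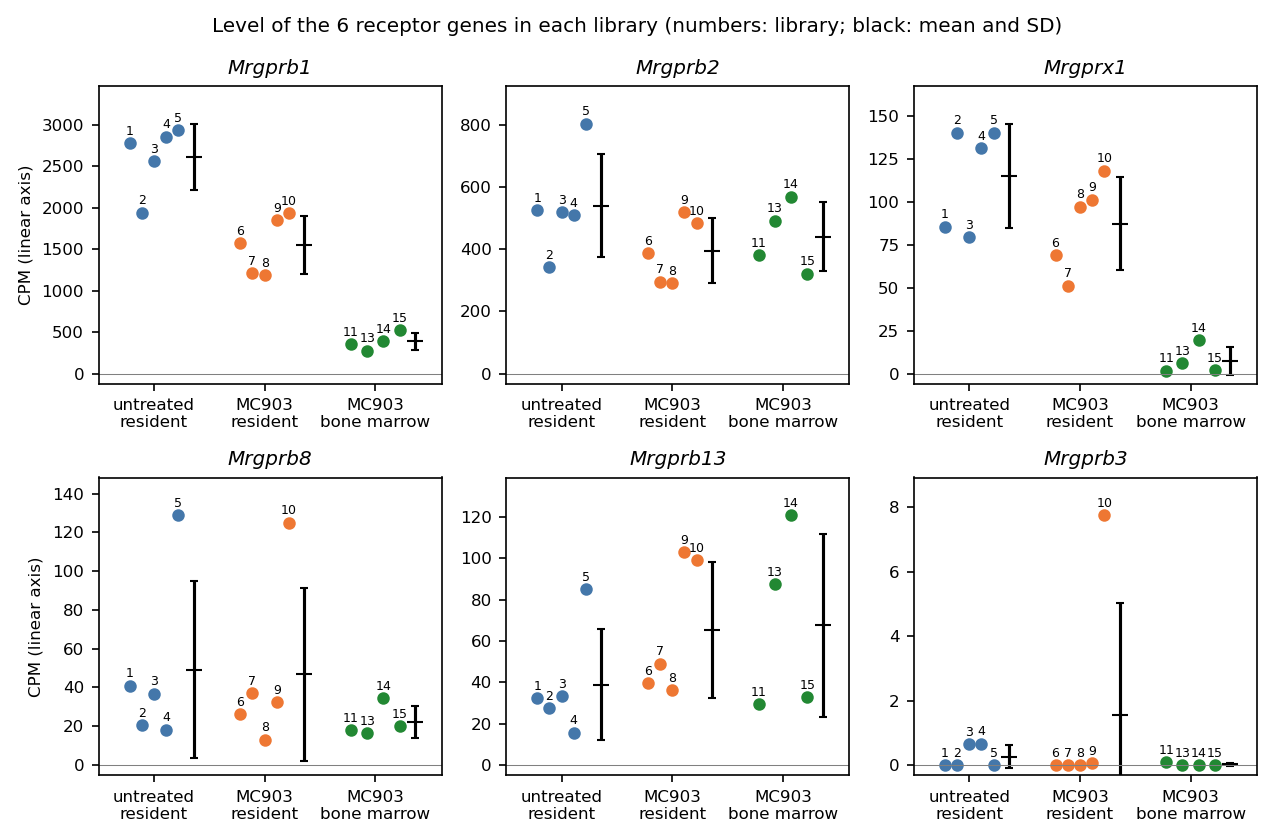
Level of each of the 6 receptor genes (CPM, linear axes that differ between panels) in each library, with the mean and SD of each group in black and the library numbers beside the points. Mrgprb1 is lowest in the 4 bone marrow-labelled libraries (277 to 525 CPM) and highest in untreated resident cells (1943 to 2937 CPM), whereas the Mrgprb2 points of the 3 groups overlap.

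Mrgprb1 was the most abundant member in resident cells. In untreated resident libraries 1 to 5 it stood at 2781, 1943, 2561, 2857 and 2937 CPM. The MC903 resident libraries 6 to 10 gave 1576, 1209, 1186, 1854 and 1933 CPM, and the bone marrow-labelled libraries 11, 13, 14 and 15 gave 352, 277, 392 and 525 CPM. No library of one group reached the range of another, although library 10 and library 2 nearly met. The means were 2616 ± 401 CPM (SD, n = 5), 1552 ± 350 (n = 5) and 386 ± 104 (n = 4). The bone marrow-labelled group was lower than MC903 resident cells by a log2 fold change of -2.01 ± 0.213 (SE, adjusted p = 1.43e-05, edgeR quasi-likelihood test with Benjamini-Hochberg adjustment) and lower than untreated resident cells by -2.76 ± 0.221 (6.77-fold, adjusted p = 3.56e-07). Both calls held in all 9 fits that left out a library and in all 9 other alternatives run. Without libraries 7, 8 and 15 they were -2.41 and -2.95.

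Between the resident groups, Mrgprb1 differed by -0.75 ± 0.190 (SE, edgeR adjusted p = 0.038). It was the single member called of 5 tested, in a comparison where 2.25% of 21014 genes were called, 1.68% lower, and 5.33% had groups that did not overlap. The direction was the same in all 19 alternatives, with changes between -0.84 and -0.55. The call did not hold with DESeq2 size factors (-0.63, adjusted p = 0.059), with scaling factors taken from well-expressed genes (-0.58, adjusted p = 0.0808), or without libraries 7, 8 and 15 (-0.55, adjusted p = 0.179). Leaving out library 2 or 10 kept it. Leaving out library 1, 3, 4, 5, 6, 7, 8 or 9 gave edgeR adjusted p-values of 0.124, 0.0707, 0.131, 0.0711, 0.108, 0.126, 0.104 and 0.0705 in that order.

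Mrgprb2, the secretagogue receptor, had a level in every group that overlapped both others. Untreated resident libraries held 525, 342, 520, 509 and 805 CPM, MC903 resident libraries 387, 296, 291, 520 and 485 CPM, and bone marrow-labelled libraries 380, 492, 569 and 321 CPM. Library 5 was the highest and library 8 the lowest. The means were 540 ± 166 CPM (SD, n = 5), 396 ± 105 (n = 5) and 440 ± 111 (n = 4). MC903 resident cells differed from untreated ones by a log2 fold change of -0.45 ± 0.227 (edgeR adjusted p = 0.438). The bone marrow-labelled cells differed from MC903 resident cells by 0.15 ± 0.240 (adjusted p = 0.794) and from untreated cells by -0.30 ± 0.242 (adjusted p = 0.544). No alternative called Mrgprb2 in any of the 3 comparisons.

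Mrgprx1 had the greatest fold differences of the members tested in both comparisons of bone marrow-labelled cells. Its levels were 85.4, 140, 79.2, 131 and 140 CPM in untreated resident libraries and 68.7, 51.0, 97.0, 101 and 118 CPM in MC903 resident libraries. In bone marrow-labelled libraries 11, 13, 14 and 15 they were 1.72, 5.95, 19.3 and 2.13 CPM, resting on 41, 171, 453 and 42 reads. The resident groups overlapped, and every bone marrow-labelled library lay below every resident one, with library 14 the highest of the 4. The log2 fold change was -3.58 ± 0.594 against MC903 resident cells (edgeR adjusted p = 0.00325) and -3.98 ± 0.607 against untreated cells (15.8-fold, adjusted p = 0.000452). Both calls held in all 9 fits without a library (adjusted p at most 0.0328 and 0.0073) and in the 9 other alternatives. Without libraries 7, 8 and 15 the changes were -3.43 and -3.69. Library 14 moved the fold by over 1.5 times: without it the log2 changes were -4.72 and -5.13 (adjusted p = 7.68e-07 and 1.48e-07). Between the resident groups the difference was -0.40 ± 0.489 (adjusted p = 0.85).

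Of the 5 members tested, 2 were thus called lower in the bone marrow-labelled cells than in MC903 resident cells, where 0.952% of all genes were called lower and 2.27% in either direction. Against untreated cells 2 of 5 were called lower, beside 3.37% of all genes lower and 6.87% in either direction. In each of these comparisons the called genes were also the members whose groups did not overlap, as for 8.29% and 10.4% of all genes. These comparisons share libraries with each other, so their agreement on a gene is not independent.

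Because Mrgprx1 is known from sensory neurons, the neuronal markers were read beside it. Their sum over 8 genes was 50.2 to 75.9 CPM in untreated resident libraries, 43.6 to 170 CPM in MC903 resident libraries and 57.3 to 356 CPM in bone marrow-labelled libraries. In bone marrow-labelled libraries most of the sum was Calca, the gene of a neuropeptide, at 49.0 to 336 CPM, against 0.0447 to 10.1 CPM in untreated and 11.2 to 138 CPM in MC903 resident libraries. Trpv1 reached at most 1.94 CPM and Prph at most 1.81 CPM in any library, while Nefl was at 0 in all bone marrow-labelled libraries. Calca was called higher and Scn11a, a sodium channel, lower in bone marrow-labelled than in untreated cells. Scn11a, with 39.0 to 75.7 CPM in untreated libraries, 21.6 to 29.2 CPM in MC903 resident libraries and 3.48, 7.93, 18.6 and 30.7 CPM in libraries 11, 13, 14 and 15, lay below every untreated library in both MC903 groups. Unlike Mrgprx1, it did not overlap between the resident groups, and its level in library 15 was above every MC903 resident library. Whether RNA of other cells had a part in the Mrgprx1 levels was not tested.

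Mrgprb8 varied more within groups than between them. Its levels were 41.0, 20.7, 36.8, 18.2 and 129 CPM in untreated resident libraries, 26.1, 37.2, 13, 32.6 and 125 CPM in MC903 resident libraries and 18.0, 16.4, 34.5 and 19.9 CPM in bone marrow-labelled libraries. Libraries 5 and 10 stood far above the rest of their groups. The log2 fold changes were -0.07 ± 0.564 between the resident groups, -1.08 ± 0.613 for bone marrow-labelled against MC903 resident cells and -1.15 ± 0.615 against untreated cells (edgeR adjusted p = 0.985, 0.377 and 0.305). Leaving out library 5 turned the first of these to 0.68, and its sign also changed under other scalings. The second was -0.30 without library 10 (adjusted p = 0.819) and the third -0.39 without library 5 (adjusted p = 0.744).

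Mrgprb13 gave 32.5, 27.4, 33.4, 15.6 and 85.2 CPM in untreated resident libraries and 39.7, 49.1, 36.3, 103 and 99.0 CPM in MC903 resident libraries. Bone marrow-labelled libraries gave 29.5, 87.4, 121 and 32.9 CPM. Apart from library 5, each MC903 resident library lay above each untreated one, whereas the bone marrow-labelled libraries spanned both ranges. The log2 fold changes were 0.75 ± 0.455 between the resident groups, 0.05 ± 0.480 for bone marrow-labelled against MC903 resident cells, a sign that other scalings turned, and 0.80 ± 0.478 against untreated cells (edgeR adjusted p = 0.567, 0.973 and 0.365).

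Mrgprb3 was almost silent and did not pass the filter on low counts, so it was not tested. It had 17 and 14 reads in untreated libraries 3 and 4, 1 read in library 9 and 2 in library 11. Library 10 was the exception, with 184 reads or 7.76 CPM. In the 9 libraries with no read, a count of 0 allows a level of up to 0.104 to 0.194 CPM.

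Compared between genes per kilobase of gene length, the order of the members changed with the group. In untreated resident cells Mrgprb1 led with 625 ± 95.9 CPM per kb, followed by Mrgprb2 (260 ± 80.2), Mrgprx1 (97.6 ± 25.7), Mrgprb8 (43.8 ± 40.8), Mrgprb13 (39.4 ± 27.3) and Mrgprb3 (0.258 ± 0.354). Mrgprb8 and Mrgprb13 did not differ beyond their spread. MC903 resident cells kept Mrgprb1 (371 ± 83.6 CPM per kb) above Mrgprb2 (191 ± 50.7) in 5 of 5 libraries, and the ranges of Mrgprx1 (73.8 ± 22.7), Mrgprb13 (66.5 ± 33.4) and Mrgprb8 (41.7 ± 39.8) overlapped. Bone marrow-labelled cells had Mrgprb2 first (212 ± 53.6 CPM per kb), above Mrgprb1 (92.4 ± 24.9) in 4 of 4 libraries. There Mrgprb1 and Mrgprb13 (68.7 ± 45.0) overlapped, and Mrgprb8 (19.8 ± 7.42) and Mrgprx1 (6.18 ± 7) followed.

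On the same scale, and among 21014 genes ranked by their group mean, Mrgprb1 went from rank 69 in untreated resident cells to 104 in MC903 resident and 583 in bone marrow-labelled cells. Mrgprb2 ranked 185, 217 and 250, and Mrgprx1 ranked 476, 566 and 5242. The summed level of the 6 members was 1066 ± 222 CPM per kb in untreated cells, 745 ± 210 in MC903 resident cells and 399 ± 102 in bone marrow-labelled cells. Of that sum, Mrgprb1 made up 59.2%, 50.4% and 24.5%, while Mrgprb2 made up 24.0%, 25.7% and 53.3%. Mrgprb13 took 3.53%, 8.57% and 16.0%, and Mrgprx1 9.46%, 10.1% and 1.32%. Library 15 had the largest Mrgprb1 share of its group, 37.7% against 16.1% in the lowest.

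**Figure D2:**
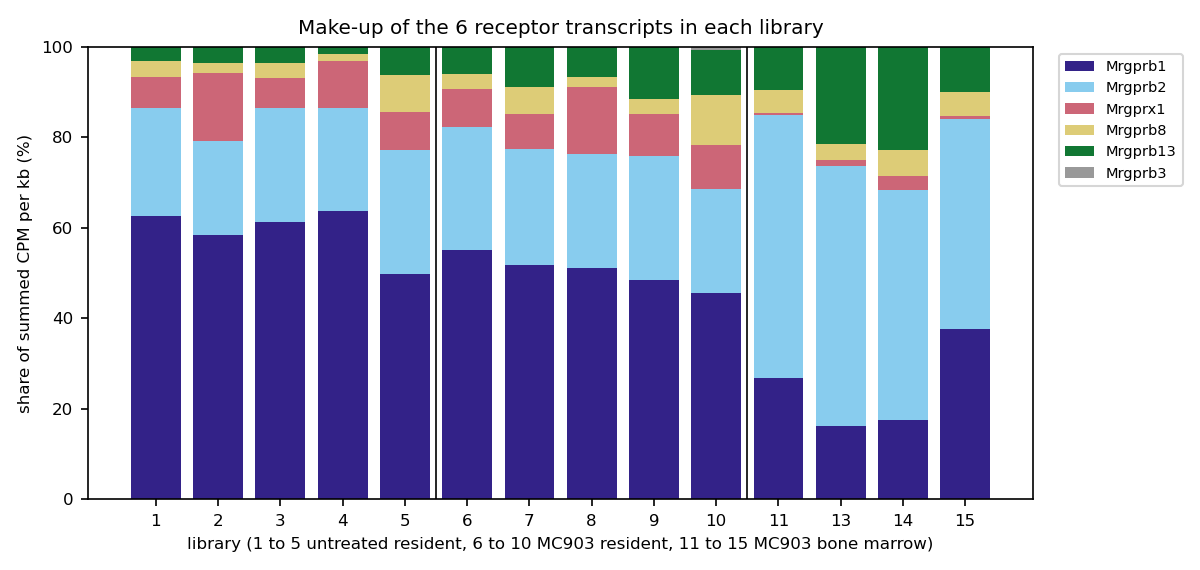
Share of each gene in the summed CPM per kb of the 6 members (vertical axis, percent), one bar for each library in the order of the groups. Mrgprb2 takes 46.4% to 58.1% in the bone marrow-labelled libraries and 20.7% to 27.5% in the resident ones.

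A ratio of 2 genes within a library does not depend on how libraries are scaled, so the reads of each member were also set against those of Mrgprb2, a comparison added after the levels had been seen. Mrgprb1 had 5.29, 5.68, 4.92, 5.61 and 3.65 reads for each Mrgprb2 read in untreated libraries, 4.07, 4.09, 4.07, 3.57 and 3.98 in MC903 resident libraries and 0.928, 0.563, 0.688 and 1.64 in bone marrow-labelled libraries. The last group lay below every resident library, and library 15 was its highest. The mean log2 ratio was 2.17 lower than in MC903 resident and 2.50 lower than in untreated cells (exact permutation p = 0.00794 for each, two-sided, the smallest this design can give, and 0.0238 after adjustment over 21 ratio tests). Between the resident groups it differed by -0.33 (exact permutation p = 0.0397, adjusted p = 0.0758).

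For Mrgprx1 the median was 0.174 reads for each Mrgprb2 read in untreated cells (0.152 to 0.410), 0.194 in MC903 resident cells (0.172 to 0.333) and 0.00937 in bone marrow-labelled cells (0.00453 to 0.0340). The mean log2 ratio of the bone marrow-labelled cells differed by -4.36 from MC903 resident and by -4.35 from untreated cells (exact permutation adjusted p = 0.0238 for each). Between the resident groups it differed by 0.02 (adjusted p = 0.96), a difference whose sign changed when libraries were left out. Set against Mrgprb1 in place of Mrgprb2, Mrgprx1 was 2.19 lower on the log2 scale in bone marrow-labelled than in MC903 resident cells (exact permutation p = 0.0238, adjusted p = 0.05), which missed the threshold. Against untreated cells it was 1.84 lower (exact permutation p = 0.0556, adjusted p = 0.0834). Without library 14 both differences passed, at -2.87 against MC903 resident and -2.52 against untreated cells (exact permutation adjusted p = 0.0341 for each).

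Mrgprb13 rose against Mrgprb2 with treatment. It had a median of 0.0641 reads for each Mrgprb2 read in untreated libraries (0.0307 to 0.106) and 0.166 in MC903 resident libraries (0.102 to 0.204), with library 5 the only untreated one inside the treated range. The log2 ratio differed by 1.28 (exact permutation p = 0.0159, adjusted p = 0.0371). That call was kept in 1 of 10 tests that left out a library, with differences from 1.01 to 1.46, and was lost without libraries 7, 8 and 15 (1.34, adjusted p = 0.173). Bone marrow-labelled cells differed from untreated ones by 1.05 (adjusted p = 0.0834). No ratio of Mrgprb8 to Mrgprb2 passed the test.

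Ratio calls of Mrgprb1 and Mrgprx1 for the bone marrow-labelled cells kept their direction in all 9 tests that left out a library in each comparison, with adjusted p between 0.0341 and 0.0667. Leaving out a resident library leaves 4 against 4, where the smallest possible exact p is 0.0286. Both genes, whose groups did not overlap, reached that p, and the adjusted p of 0.05 to 0.0667 missed the threshold. The differences ranged from -1.96 to -2.81 for Mrgprb1 and from -3.94 to -4.93 for Mrgprx1 over all tests without a library. Without library 15 the log2 differences were -2.47 and -2.81 for Mrgprb1 and -4.14 and -4.12 for Mrgprx1 (exact permutation adjusted p = 0.0417 for each). Without libraries 7, 8 and 15 together they were -2.44, -2.81, -4.04 and -4.12. The groups are then 3 against 3 and 3 against 5, with smallest possible exact p of 0.1 and 0.0179 (adjusted p = 0.173 and 0.0938), so the first comparison could not pass at any size of difference.

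**Figure D3:**
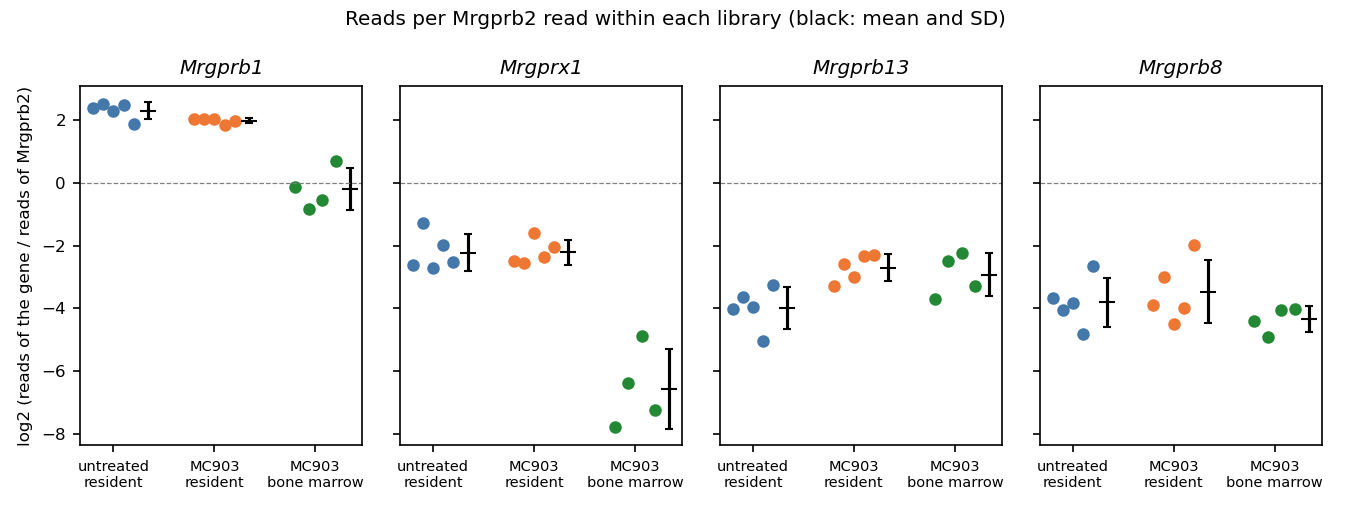
Log2 of the reads of each gene over the reads of Mrgprb2 in the same library (vertical axis), by group, with mean and SD in black; 0 marks equal read numbers. The bone marrow-labelled libraries lie below all others for Mrgprb1 and Mrgprx1, and the groups overlap for Mrgprb13 and Mrgprb8.

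Relatives of the members in the same cluster, Mrgprx2, Mrgpra4 and Mrgprc2-ps, were also called lower in bone marrow-labelled cells in at least 1 comparison. Mrgprx2 (the Mrgprb10 of RefSeq), whose promoter is shown beside that of Mrgprb1, held 342, 300, 299, 296 and 230 CPM in untreated libraries, 200, 126, 179, 226 and 269 CPM in MC903 resident libraries and 56.2, 42.3, 72.8 and 35.7 CPM in bone marrow-labelled ones. The last group lay below the others by log2 fold changes of -1.95 ± 0.247 and -2.50 ± 0.253 (edgeR adjusted p = 9.37e-05 and 2.18e-06), values near those of Mrgprb1. Mrgpra4 was lower too, at 21.4 ± 11.5 CPM against 58.4 ± 20.8 and 128 ± 19.0, with changes of -1.45 ± 0.338 (adjusted p = 0.0246, and 0.0606 without library 13, 0.068 without libraries 7, 8 and 15, or 0.0719 from the groups compared alone) and -2.58 ± 0.355 (adjusted p = 6.96e-05). Mrgpra4 levels of the resident groups did not overlap, and their difference of -1.13 ± 0.310 missed the threshold (edgeR adjusted p = 0.0613), as it did in all 10 fits without a library, and passed in 5 of the 9 other alternatives. The pseudogene Mrgprc2-ps, 89.8% identical to Mrgprx1 over the aligned transcript, was called lower by edgeR against MC903 resident cells (-1.66 ± 0.383, adjusted p = 0.0233) and not against untreated cells (-1.09 ± 0.376, adjusted p = 0.0888). DESeq2 called the second (-1.10, adjusted p = 0.024), as did edgeR without library 5 (-1.31, adjusted p = 0.0121). The call against MC903 resident cells did not hold without libraries 7, 8 and 15 (adjusted p = 0.064) or without library 10, 11, 13 or 14 (adjusted p at most 0.0608).

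**Figure D4:**
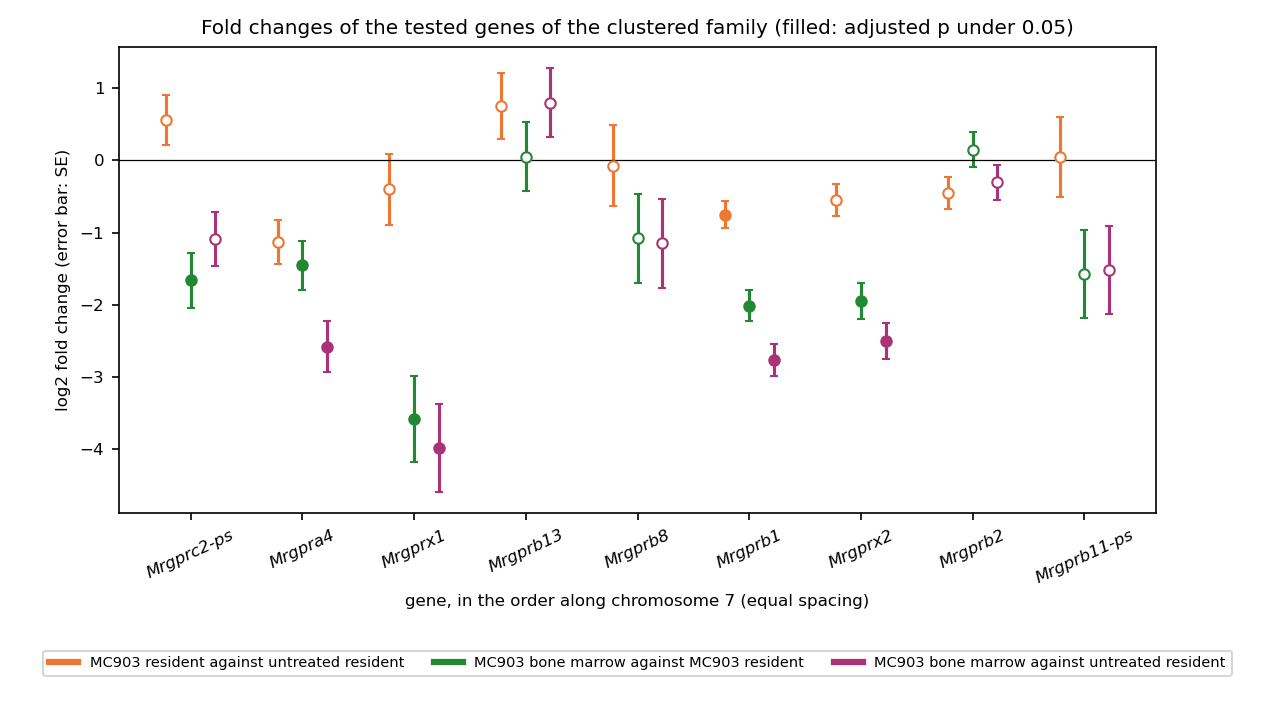
Log2 fold change with SE (vertical axis) of 9 tested genes of the cluster, in their order along the chromosome, for the 3 comparisons; filled points passed the adjusted p threshold of 0.05. Mrgprx1, Mrgprb1, Mrgprx2 and Mrgpra4 are filled for both comparisons of bone marrow-labelled cells, and Mrgprc2-ps only for that against MC903 resident cells. Mrgprb2, Mrgprb13, Mrgprb8 and Mrgprb11-ps are open throughout.

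The remaining relatives were sparse. Mrgprb11-ps (1.88 to 28.9 CPM) and Mrgpre (7.69 to 49.2 CPM) were detected in all 14 libraries, and edgeR called neither in any comparison, nor Mrgprb7-ps, at no more than 4.12 CPM. DESeq2 called Mrgprb11-ps lower in bone marrow-labelled cells than in MC903 resident cells (log2 fold change -1.73, adjusted p = 0.0307) and than in untreated cells (-1.52, adjusted p = 0.0477). With limma voom, Mrgprb7-ps was called higher in MC903 resident than in untreated cells (adjusted p = 0.026) and lower in bone marrow-labelled than in MC903 resident cells (adjusted p = 0.036). Mrgpra9 had 218 reads in library 13 and at most 14 elsewhere. A further set, Mrgpra6, Mrgprx3-ps, Mrgpra2a, Mrgpra14, Mrgpra3, Mrgprc7-ps, Mrgprb12-ps, Mrgprb5, Mrgprb9-ps, Mrgprg, Mrgprd, Mas1 and Mrgprh, had at least 10 reads in some library and at most 68 in any. These were not tested.

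Over all 14 libraries, the log2 levels of Mrgprb1 and Mrgprx2 correlated with r = 0.943, those of Mrgprx1 and Mrgprx2 with 0.931 and those of Mrgprx1 and Mrgprb1 with 0.878. Mrgprb1 and Mrgprb2 gave 0.284 and Mrgprb2 and Mrgprx1 0.269. Among 7959 genes, the levels most like those of Mrgprb1 were Grik2 (r = 0.981), Mapk12 (0.974) and Ccl7 (0.971), and those most like Mrgprx1 were Gng11 (0.979), Lsamp (0.976) and Hs3st3a1 (0.965). Mrgprb2 was most like Ccnc (0.917), Lat2 (0.896) and Mtg1 (0.891), Mrgprb8 like Maf1 (0.881), Pdrg1 (0.864) and Araf (0.823), and Mrgprb13 like Derl2 (0.870), Crtap (0.855) and Syngr2 (0.846). These values describe 14 libraries that share their group structure, scaling and depth. The chemokine Ccl7 stood at 24718, 13386 and 2684 CPM and the γ subunit Gng11 at 52.9, 31.2 and 3.54 CPM in untreated resident, MC903 resident and bone marrow-labelled cells.

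Downstream of the receptors, 50 genes of G protein signalling were all tested. Between the resident groups 0 were called higher and 4 lower (8%, against 2.25% of all genes), with a median log2 fold change of -0.09 beside 0.24 over all genes, and none was called without libraries 7, 8 and 15. The split changed with the processing. It was 2 higher and 3 lower under DESeq2 size factors or scaling on well-expressed genes. With DESeq2, which changes scaling and test, it was 3 higher and 4 lower. With limma voom 0 were higher and 6 lower, and without a filter 1 was higher and 5 lower. In bone marrow-labelled against MC903 resident cells 2 were higher and 1 lower (6%, against 2.27%), with medians of 0.10 and -0.28. Against untreated cells 3 were higher and 4 lower (14%, against 6.87%), with medians of -0.09 and -0.14.

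Of the G protein subunits, Gnai1, an inhibitory α subunit, was also lowest in the bone marrow-labelled cells. It held 733, 467, 505, 493 and 598 CPM in untreated libraries, 352, 326, 302, 430 and 513 CPM in MC903 resident libraries and 26.4, 65.2, 82.9 and 82.2 CPM in bone marrow-labelled ones. Only the bone marrow-labelled group stood apart, by log2 fold changes of -2.58 ± 0.286 and -3.12 ± 0.293 (edgeR adjusted p = 1.87e-05 and 1.14e-06). The γ subunit Gng2 was at 275 ± 50.3 CPM in untreated cells, 137 ± 30.9 in MC903 resident and 122 ± 21.6 in bone marrow-labelled cells, lower than untreated by -1.0 ± 0.199 and -1.18 ± 0.215 (adjusted p = 0.00617, and 0.0504 without libraries 7, 8 and 15, and 0.00134). Gnb2 was higher in bone marrow-labelled than in untreated cells (0.67 ± 0.186, adjusted p = 0.0303, a call lost without library 2, 3, 11, 14 or 15, with adjusted p at most 0.119, and without libraries 7, 8 and 15 together, with adjusted p = 0.0621).

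Of 13 genes of phospholipase C and calcium entry, edgeR called 0 in each comparison, with 2, 3 and 5 at an unadjusted p under 0.05. DESeq2 and limma voom called at most 1. Among the genes that switch receptor signals off, Rgs2 was lower in MC903 resident than in untreated cells (-0.80 ± 0.169, adjusted p = 0.0103, 0.0509 without library 9 and 0.0677 without libraries 7, 8 and 15) and higher in bone marrow-labelled than in MC903 resident cells (1.36 ± 0.178, adjusted p = 0.00014). Its means were 1815 ± 361, 1044 ± 161 and 2685 ± 459 CPM. Rgs1 was lower than in untreated cells by -1.22 ± 0.265 in bone marrow-labelled cells (adjusted p = 0.00556) and by -0.94 ± 0.245 in MC903 resident cells (adjusted p = 0.0449), the latter kept only without library 2 or 10 (adjusted p at most 0.158 without each of the others, and 0.308 without libraries 7, 8 and 15).

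The calcium-driven transcription factor Nfatc1 was at 199 ± 59.6, 100 ± 28.5 and 214 ± 29.6 CPM in untreated, MC903 resident and bone marrow-labelled cells. It was called lower in the first comparison (-0.99 ± 0.230, edgeR adjusted p = 0.0206) and higher in the second (1.10 ± 0.242, adjusted p = 0.0168). Without libraries 7, 8 and 15 neither call held (-0.80, adjusted p = 0.198, and 0.85, adjusted p = 0.156). Without library 1, 4, 6, 7 or 8 the first reached an adjusted p of at most 0.102, and without library 6 or 7 the second reached at most 0.0624. Pik3r5 and Pik3r6, the regulatory subunits of the phosphoinositide 3-kinase that G protein βγ subunits activate, moved in opposite directions against untreated cells. Pik3r5 was at no more than 0.285 CPM in untreated cells and at 1.80, 19.0, 19.3 and 40.2 CPM in libraries 11, 13, 14 and 15 (adjusted p = 0.000568), while Pik3r6 fell from 195 ± 43.8 to 87.3 ± 26.0 CPM (-1.16 ± 0.240, adjusted p = 0.00401). Mapk3, the kinase ERK1, was higher than in untreated cells (1.30 ± 0.303, adjusted p = 0.00986, and 0.0524 without libraries 7, 8 and 15).

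Other receptors that activate mast cells were read from a list of 10, of which 9 were tested. None was called between the resident groups by edgeR, with 2 at an unadjusted p under 0.05, 1 called by DESeq2 and 0 by limma voom. Ednra, the endothelin receptor, was lower in bone marrow-labelled cells (35.4 ± 25.3 CPM) than in MC903 resident (145 ± 52.9, -2.03 ± 0.364, adjusted p = 0.00348) and untreated cells (183 ± 28.7, -2.37 ± 0.370, adjusted p = 0.00028). C3ar1, the receptor of complement C3a, and Ccr1, a chemokine receptor, were called higher in bone marrow-labelled than in MC903 resident cells (edgeR adjusted p = 0.042 and 0.0304), and both were highest in library 15, at 333 and 290 CPM. The other 3 libraries of that group had 7.88, 41.6 and 19.7 CPM of C3ar1 and 22.2, 5.43 and 46.0 CPM of Ccr1. MC903 resident libraries had 4.52 to 15.3 CPM of C3ar1 and 0 to 2.84 CPM of Ccr1. Untreated libraries had 11.4 to 29.9 and 3.36 to 19.0 CPM, and edgeR called neither gene against untreated cells. The C3ar1 call was lost without libraries 7, 8 and 15 (adjusted p = 0.285) and without any 1 of libraries 6, 7, 8, 9, 10, 13 and 15 (at most 0.121). The Ccr1 call held without those 3 together (adjusted p = 0.0315) but not without library 6, 7, 9, 10, 11 or 14 (at most 0.0749). Library 15 also carried the macrophage markers, whose part in these values was not tested.

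Genes of peptide ligands were low, apart from Penk in MC903 resident libraries. Of 10 listed, 4 were tested, and edgeR called 0 in each comparison, with 1, 2 and 1 at an unadjusted p under 0.05. DESeq2 called 0, 1 and 1 and limma voom 1, 2 and 0. Penk, the precursor of the BAM peptides that act on Mrgprx1, held 26.5, 8.17, 95.6, 24.0 and 5.27 CPM in libraries 6 to 10, all MC903 resident, and no other library passed 4.63 CPM. Tac1, the precursor of the Mrgprb2 ligand substance P, stayed at or below 5.45 CPM. Adm, Vip, Cort, Pomc, Adcyap1 and Tac4 did not pass 8.19 CPM in any library.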

How the data were processed

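The authors deposited whole-number read counts per gene for 14 libraries, made with SMART-Seq HT and Nextera XT per the labels' protocols. STAR, featureCounts and mm10 stand in the submitters' processing notes; versions, annotation, strand and multi-mapping settings are not given in the sources used here. Of 55487 gene identifiers, 55094 matched GENCODE M21 (GRCm38) in version and position, and 55394 had a symbol. Genes were filtered with filterByExpr (minimum count 10, minimum total 15), which left 21014 genes. With edgeR 4.0.16, one model of the 3 groups took in all 14 libraries (TMM, robust quasi-likelihood, common dispersion 1.33) in R 4.3.3, and genes with a Benjamini-Hochberg adjusted p under 0.05 were called. CPM are counts over TMM-scaled sums of the tested genes. SEs were obtained by dividing the log2 fold change by the root of the F statistic. Ratios of reads were compared by exact permutation tests, with Benjamini-Hochberg adjustment by scipy 1.17.1. Alternatives used DESeq2 1.42.0, limma 3.58.1, other filters and scalings, and fewer libraries. The fit was also run on simulated counts. These were less dispersed than the data and held only large changes. That run says nothing on the smaller changes reported here.

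The members and gene lists were chosen with earlier results of these data known. All members are described. Relatives and ligand genes with at least 10 reads in a library are named, and of the other lists up to 4 called genes per comparison, with the largest fold changes and at least 10 CPM in the higher group. The 3 genes most like each member were taken by Pearson's r of log2 CPM (prior count 2) among genes whose mean reached 10 CPM. Promoters come from RefSeq on GRCm38.p6 (5 of 6 members matched).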

Additional observations from a re-analysis of the deposited data

Results flagged for a closer look

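In 33 groups of libraries (11 genes of the family), 6 held a library whose level lay far from the rest by Dixon's criterion. Its rate of about 1 in 20 by chance assumes normally distributed levels. Some groups here held few or no reads, so no excess over that rate can be read from the count. Mrgprb8 stood at 129 CPM in untreated library 5, with the next library at 41.0 CPM, and at 125 CPM in MC903 resident library 10, with the next at 37.2 CPM. Its pseudogene-annotated relative Mrgprb13 was also high in library 5, at 85.2 CPM against 33.4 CPM in the next library. These values rest on 2892, 2966 and 1906 reads. In that same library 5 Mrgpre was low, at 7.69 CPM where the next lowest untreated library had 22 CPM. Mrgprb7-ps reached 0.179 CPM in library 5 and 0.254 CPM in library 15, resting on 4 and 5 reads.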

How the results depend on the processing

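The Mrgprb1 and Mrgprx1 calls of the bone marrow-labelled cells held in every alternative fit run: 2 members were called in both comparisons throughout. Between the resident groups the number of members called was 1, and 0 with DESeq2 size factors, scaling on well-expressed genes (10 CPM or more on average), a filter at that level, or without libraries 7, 8 and 15, and 0 to 1 without single libraries; the stricter filter tests fewer genes, and otherwise the cause was not tested. Over all genes the calls there were 473 (1062 with DESeq2, 1357 with limma voom, 253 without libraries 7, 8 and 15, and 312 to 516 without single libraries). For bone marrow-labelled against MC903 resident cells they were 477 (277 higher, 200 lower), and 748 without a filter, 1710 with DESeq2 (444 higher, 1266 lower), 2073 with limma voom (679 higher, 1394 lower), 315 from these groups alone (176 higher, 139 lower) and 302 to 704 without single libraries. For bone marrow-labelled against untreated cells they were 1443, 2707 with DESeq2, 2212 with limma voom and 1140 to 1549 without single libraries. Calls between the resident groups split into 120 higher and 353 lower, and into 595 and 467 with DESeq2 and 660 and 697 with limma voom. Signalling genes called went from 4 to 7 with DESeq2, 0 without libraries 7, 8 and 15 and 2 to 5 without single libraries in the first comparison, from 3 to 6 with DESeq2 and with limma voom in the second, and from 7 to 11 and 13 in the third.

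Signs turned for changes that were not called. Mrgprb8 between the resident groups became 0.02 with DESeq2 size factors and with DESeq2, 0.07 with scaling on well-expressed genes and with the stricter filter, 0.32 without libraries 7, 8 and 15, and ranged from -0.85 to 0.68 without single libraries. Mrgprb11-ps became -0.0013 without a filter, -0.10 with limma voom, -0.17 without libraries 7, 8 and 15, and -0.21 to 0.33 without single libraries. In the second comparison Mrgprb13 became -0.08 with DESeq2 size factors and with DESeq2, -0.09 with scaling on well-expressed genes and with the stricter filter, -0.05 from the groups compared alone, -0.04 without libraries 7, 8 and 15, and -0.38 to 0.28 without single libraries. Mrgpre became -0.09 with DESeq2 size factors and with DESeq2, -0.11 and -0.12 with the other scaling and the stricter filter, -0.04 from the groups compared alone, and -0.36 to 0.31 without single libraries. Mrgprb7-ps in the third became -0.35 with limma voom, and -3.15 to 1.96 without single libraries, the lowest without library 15. Of the ratios to Mrgprb2, that of Mrgprx1 between the resident groups became -0.08 without libraries 7, 8 and 15 and ranged from -0.14 to 0.25 without single libraries; the ranges were -0.39 to 0.02 for Mrgprx2, -0.04 to 0.62 for Mrgprb8, and -0.45 to 0.03 for Mrgprb13 in the second comparison. Ratio settings were chosen after seeing the data.

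Against TMM, DESeq2 size factors moved the median of all genes by 0.16 and -0.15 in the first and second comparison, and scaling on well-expressed genes by 0.21 and -0.15. Under both scalings the call of Mrgprb1 between the resident groups was lost, while the direction of its change stayed the same. Depth limits Mrgprb3 and Mrgprb7-ps, read by few counts. No paired analysis was possible because the labels give a running library number and no animal. Whether cells of both MC903 groups came from the same mice is not stated, and the tests treated their libraries as independent.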
